A study of Gallus gallus with 4 samples.

Results

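The strongest c-Myc peaks of chicken myoblasts that lie away from promoters and outside repeats comprised 1475 regions, of 19354 peaks called in myoblasts and 20415 called in both cell states. A region was taken when it held at least 19 c-Myc tags (the caller's unit of sequenced reads, listed in steps of 0.5), lay more than 1 kb from the nearest annotated transcription start site (TSS), was not labelled a promoter and carried no repeat name in its detailed annotation. The tag limit alone took 1909 myoblast peaks (9.86% of the list), of which 297 were then left out as promoter or TSS peaks and 137 as repeats. In these files the promoter label reached to 1997 bp from a TSS, so that the closest region taken lay 2006 bp away. The regions were selected on their myoblast c-Myc tags, so tags, score, IgG tags and folds are given below as a description. The other distal peaks, 15228 myoblast peaks that met the same conditions of position and repeat but held fewer tags, served for comparison.

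The cells were primary chicken embryo skeletal muscle cells at passage 1, as multinucleated myotubes differentiated in 2% horse serum or as dividing myoblasts grown in 15% fetal bovine serum. Chromatin was immunoprecipitated with an antibody to c-Myc (abcam) or with IgG (bioss) as a control and sequenced. Each cell state had 1 library of either kind, 4 in all, and the labels do not say how many cultures or embryos were pooled. In units of 1e+06 tags, the depth of c-Myc was 8.65 in myotubes and 11.5 in myoblasts, and that of IgG was 19.3 and 16.1. No library had a replicate, so each p-value compares lists of peaks within these libraries and not cell states, and intervals are exact 95% binomial intervals of counting error only. Peak lists carry no expression, so the identity of the cells could not be checked against muscle markers.

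The transcription factor c-Myc pairs with MAX through its leucine zipper and binds DNA at E-box sequences, and it is known for driving growth and division in many cell types. It is best known at promoters rich in CpG dinucleotides, but it also occupies distal sites such as enhancers, whose target gene need not be the nearest one. A CpG island is a stretch of sequence rich in unmethylated CpG, which in vertebrates often marks a promoter, and an island far from any annotated TSS may be an unannotated promoter or another regulatory element. The nearest genes named below are the authors' annotation and locate a region without showing that the gene responds to it.

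The tags of these regions were concentrated just above the limit. They ran from 19 to 48.5 with a median of 20, which is 17.4 tags per 10M (M, 1e+06) of the c-Myc library on the authors' peak score. Of the 1475 regions, 1179 (79.9%) held at most 22 tags, 101 (6.85%) held at least 25 and 17 (1.15%) held at least 30. The limit fell inside a continuous distribution, with 359 regions at exactly 19 tags and 312 distal peaks at 18.5 tags. Just inside it on chromosome 1 were regions nearest to MIR6621, IL2RA and GATA3, with 19 tags each and 5, 3.5 and 1 IgG tags. Just outside were peaks nearest to FGL2, TRMU and POT1, with 18.5 tags each and 5, 2.5 and 0 IgG tags. By counting error alone, 19 tags have an exact 95% Poisson interval of 11.4 to 29.7, so most regions near the limit could not be ranked against each other or against peaks just below it, whereas 48.5 tags correspond to 35.8 to 64.2 on the same measure.

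IgG tags over the same 200 bp were few. They ran from 0 to 12 over the regions, with a median of 3.5, against a median of 2.5 over the other distal peaks, and the IgG library was the deeper one. No IgG tag was counted at 85 regions (5.76%), and at least 8 were counted at 27 (1.83%). The authors' fold over scaled IgG ran from 4 to 84.1 with a median of 8.88, and their fold over the local surroundings from 4.03 to 24.5 with a median of 7.57. The fold of 84.1 was at a region with 0 IgG tags and a scaled IgG of 0.4. That was the lowest scaled value listed over the regions, so the highest folds rest on that floor. Over the other distal peaks the lowest fold over scaled IgG was 4.05. At such a lowest fold, a listed peak with more c-Myc tags can also hold more IgG tags. As the plot of c-Myc against IgG tags shows, both occurred among the strongest: of the 101 regions with at least 25 c-Myc tags, 5 had no IgG tag, and the strongest had 9.

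**Figure D1:**
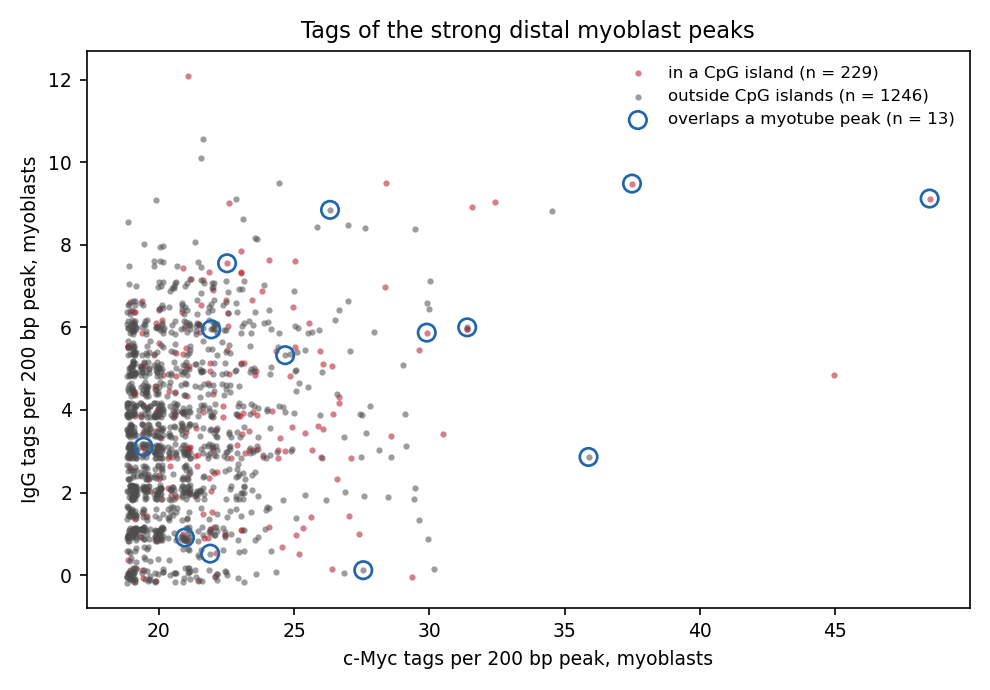
c-Myc tags (horizontal) against IgG tags (vertical) in the 200 bp of each of the 1475 strong distal myoblast peaks, with points shifted by under 0.2 tags so that they do not hide each other. Red points lie in CpG islands, and blue rings mark the 13 regions that overlap a myotube peak, which reach up to the strongest region at 48.5 tags and 9 IgG tags.

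The strongest region lay in a CpG island on chromosome 11 of galGal4 from 19379683 to 19379883, 16.3 kb downstream of the TSS of CHST6, a sulfotransferase that acts on N-acetylglucosamine. It had 48.5 c-Myc and 9 IgG tags. The next one, with 45 c-Myc and 5 IgG tags, lay in a CpG island on chromosome 3 from 104217685 to 104217885, 34.9 kb downstream of the TSS of DNMT3A, which encodes a de novo DNA methyltransferase. Another CpG island region, on chromosome 12 from 2278690 to 2278890 and 10 kb from GBP, a guanylate-binding GTPase, held 37.5 and 9.5 tags. Counting error put the first of these between 35.8 and 64.2 tags, a range that holds the tags of the other 2.

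The next regions had between 30 and 36 c-Myc tags. That nearest to CCDC101, a component of the SAGA histone acetyltransferase complex, was intergenic (chromosome 8, 28744890 to 28745090), with 36 c-Myc and 3 IgG tags. That nearest to EHD3, a protein of endocytic recycling, held 34.5 and 9 tags at 15.2 kb upstream. A CpG island region 157.6 kb upstream of HBZ, an embryonic globin gene, held 32.5 and 9. At 31.5 c-Myc tags each stood regions nearest to UCHL3, a ubiquitin hydrolase, MIR1800, GHRH, the growth hormone releasing hormone, and FAM76A, with IgG tags of 6, 6, 6 and 9. C3H6ORF120 followed with 30.5 and 3.5. PLXNB1, a semaphorin receptor of the plexin family, had a region in intron 3 with 30 c-Myc and 0 IgG tags. It was 1 of 6 regions with exactly 30 tags and was placed first among them for its low IgG count, so that 17 regions in all held at least 30. Of these 17, 9 lay in CpG islands.

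CpG islands held a larger share of these regions than of weaker distal peaks. Of the 1475 regions, 229 (15.5%, 13.7 to 17.5%) lay in an annotated CpG island, against 874 of the 15228 other distal peaks (5.74%, 5.38 to 6.12%, Fisher exact test, two-sided, p = 1.08e-36), an odds ratio of 3.02 (2.57 to 3.54). The share was higher with more tags within the regions as well. It was 9.26% at 19 to 19.5 tags, 13.7% at 20 to 21.5, 22.4% at 22 to 24.5 and 39.6% (30 to 49.8%) at 25 tags or more, against 2.95% among the weakest distal peaks, with 9 to 12.5 tags. Within chromosome classes it was 12.3% against 4.44% on macrochromosomes, 12.5% against 5.37% on intermediate chromosomes and 22.6% against 9.17% on microchromosomes, with intervals that did not overlap. On Z, where only 4 of 35 regions lay in an island, it was 11.4% against 9.27% (exact test p = 0.559).

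The authors' annotation gives each peak a single detailed label, and none of the regions in exons, 3′ untranslated regions or transcript ends was labelled a CpG island. The 229 island regions were therefore 218 in intergenic sequence and 11 in introns. They had a median of 21.5 c-Myc and 3.5 IgG tags, against 20 and 3 in the 1246 regions outside islands. They also lay closer to genes, at a median of 32.2 kb from a TSS against 52.7 kb, without a split by chromosome class. Among peaks with at most 2 IgG tags the CpG share was 12.3% in the regions and 4.39% in the other distal peaks. The base composition of the peaks was not measured, since the sequence of galGal4 was not used here.

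**Figure D2:**
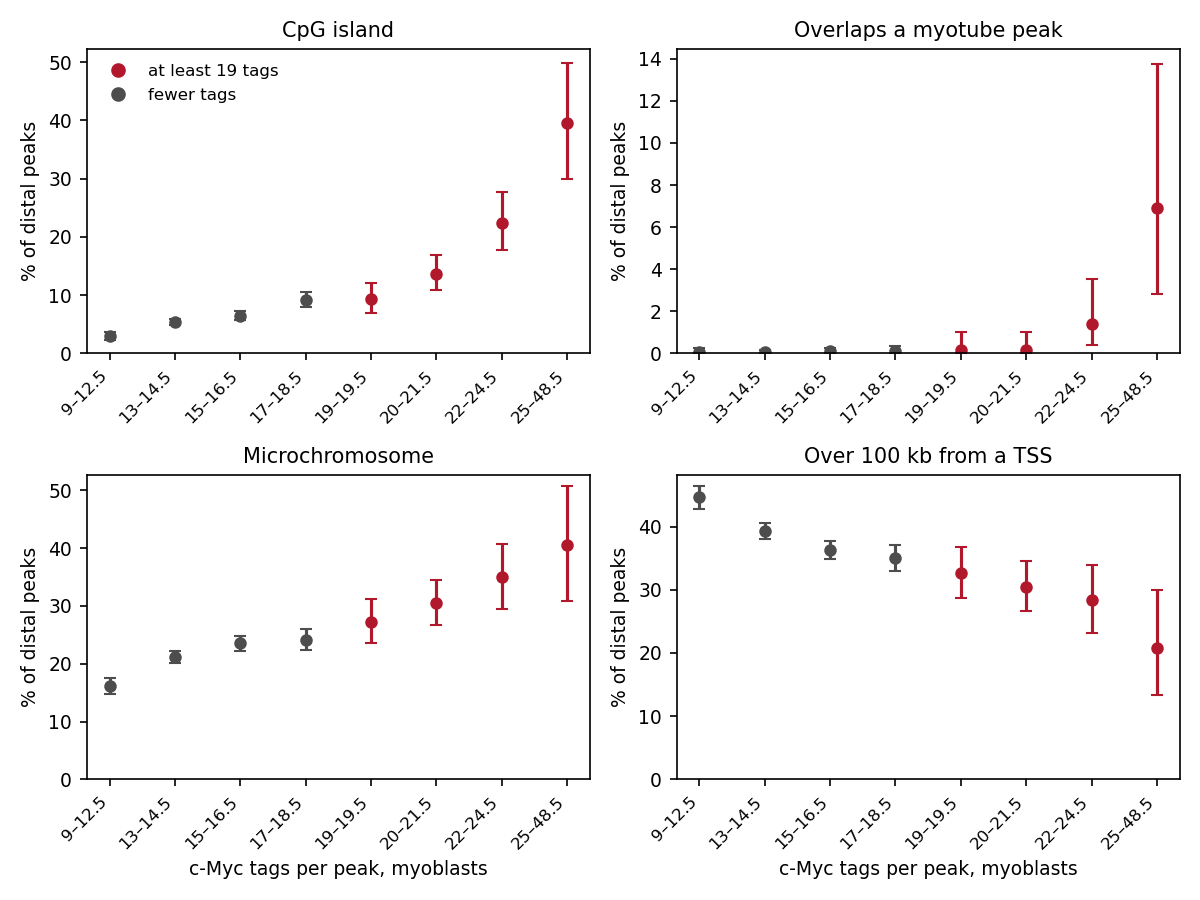
Share of distal, non-repeat myoblast peaks (vertical, %) that lie in a CpG island, overlap a myotube peak, lie on a microchromosome or lie over 100 kb from a TSS, by c-Myc tags per peak (horizontal); bars are exact 95% binomial intervals. Red marks peaks with at least 19 tags, where the CpG share goes from 9.26% to 39.6% and the share over 100 kb from 32.6% to 20.8% between the lowest and the highest class of tags.

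Within genes the regions, like the other distal peaks, were mostly intronic. Introns held 204 of the regions (13.8%), against 14.9% of the other distal peaks. Of the 193 intronic regions outside CpG islands, 50 lay in first introns. The 11 in CpG islands carry the island label in place of an intron number and were not counted. First introns were not counted among the other distal peaks. Exons held 13, 3′ untranslated regions 14 and transcript ends 18, and no region lay in a 5′ untranslated region. After PLXNB1, the most tags were counted in intron 3 of SRGAP3, a GTPase activator of the SLIT-ROBO pathway, with 29 c-Myc and 5 IgG tags. THRAP3, which encodes an mRNA processing protein that associates with the thyroid hormone receptor, had a region in its 3′ untranslated region with 28.5 and 2 tags. CBFA2T3, a transcriptional corepressor, had one in intron 1 with 28 and 6 tags.

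ARHGAP8, a GTPase-activating protein, had an intronic region with 27.5 c-Myc and 2 IgG tags. PDLIM7, a PDZ and LIM domain protein of the cytoskeleton, had one in intron 2 with 27 and 5.5 tags. A region with 27.5 and 3.5 tags whose nearest TSS was that of GHSR, the ghrelin receptor, lay in intron 20 of a transcript that the RefSeq table assigns to FNDC3B. A region with 27 and 0 tags nearest to C5H11ORF74 lay in intron 2 of a transcript of that locus. Intergenic sequence held 83.1% of the regions and 83.1% of the other distal peaks. None of the 6 annotation classes differed between them at an adjusted p under 0.05 (Fisher exact tests, Benjamini-Hochberg adjustment over the 6 classes). The lowest was that of 3′ untranslated regions, 0.949% against 0.473%, with an unadjusted p = 0.0213 and an adjusted p = 0.128 by the exact test.

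The regions lay closer to genes than weaker distal peaks did. Their median distance from a TSS was 46.7 kb, against 66.2 kb, and in both sets somewhat under 50% lay upstream (47.9% and 48.3%). Of the regions 237 (16.1%, 14.2 to 18%) lay within 10 kb of a TSS, against 10.9% (10.4 to 11.4%) of the other distal peaks, an odds ratio of 1.56 (adjusted p = 1.93e-08 over 3 distance classes, Fisher exact test). Over 100 kb away lay 445 (30.2%), against 38.9% (odds ratio 0.680, exact test, adjusted p = 9.41e-11). Between 10 and 100 kb lay 53.8% and 50.2% (exact test, adjusted p = 0.00957), a difference that was lost without CpG island peaks (51.8% against 49.6%, exact test, adjusted p = 0.148), within them (0.283) and among peaks with at most 2 IgG tags (0.478). The difference within 10 kb was lost within CpG islands (20.1% against 16.9%, exact test, adjusted p = 0.283) and with a limit of 25 tags (0.157). Far distal regions were fewer in share: 41 (2.78%) lay over 500 kb from any annotated TSS, against 4.95% of the other distal peaks. Over 1 Mb away lay 7 (0.475%), against 0.887%. Distances were not split by chromosome class. The regions also had a larger share on the gene-dense microchromosomes, as given below, and its part in these distances was not tested.

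**Figure D3:**
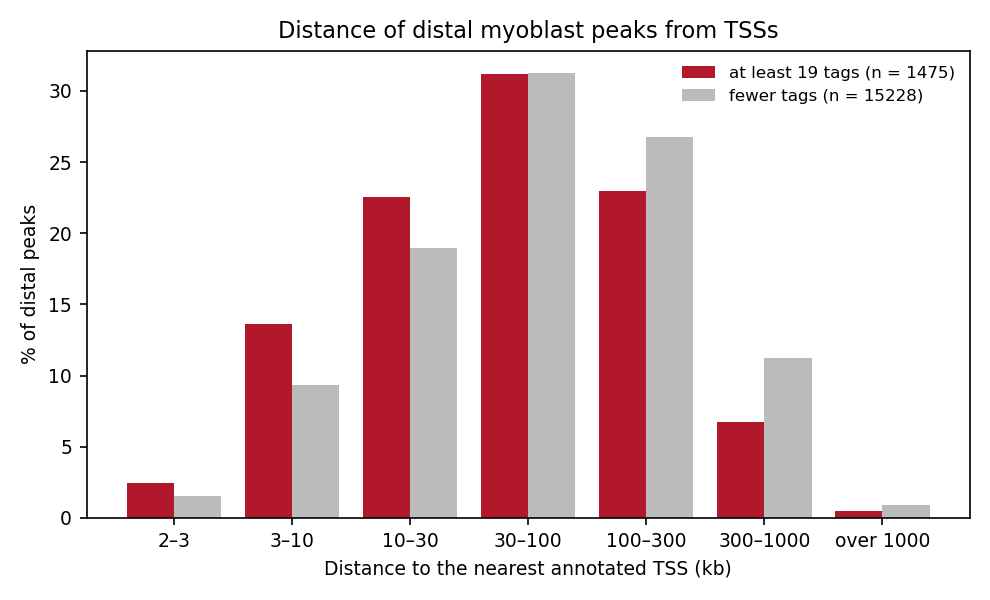
Distance to the nearest annotated TSS (horizontal, kb, unequal classes) of the strong distal peaks with at least 19 tags (red) and of the other distal peaks with fewer tags (grey), as % of each set (vertical). The regions hold a larger share of the class from 3 to 10 kb, 13.6% against 9.36%, and a smaller share of that from 300 to 1000 kb, 6.71% against 11.2%.

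By chromosome, the regions were densest on the microchromosomes, which in birds are short, gene-dense and rich in GC. Chromosomes 11 and above carried 455 regions (30.8%, 28.5 to 33.3%), against 21.3% (20.6 to 21.9%) of the other distal peaks (odds ratio 1.65, 1.47 to 1.86). That difference had an adjusted p = 1.42e-15 by the Fisher exact test, over 4 classes. On macrochromosomes 1 to 5 lay 722 (48.9%), against 58.6% (odds ratio 0.679, exact test, adjusted p = 2.85e-12). Intermediate chromosomes 6 to 10 carried 17.8% against 17.5% (exact test, adjusted p = 0.747) and the Z sex chromosome 2.37% against 2.69% (exact test, adjusted p = 0.737). Without CpG island peaks the microchromosomes still carried 28.3% against 20.5% (exact test, adjusted p = 1.73e-09), and within CpG islands 45% against 34% (0.0102). The macrochromosome difference within CpG islands, 38.9% against 45.3%, did not pass (exact test, adjusted p = 0.114). The strong promoter and TSS peaks, with 30.3% of 297 on microchromosomes, showed no difference from the regions that passed the same exact test (adjusted p = 0.891, odds ratio 1.03, 0.777 to 1.36), nor did the strong distal peaks in repeats (24.8% of 137, adjusted p = 0.293, odds ratio 1.35, 0.893 to 2.09).

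Per megabase spanned by peaks there were 2.66 regions on microchromosomes, 1.84 on intermediate chromosomes, 1.20 on macrochromosomes and 0.428 on Z. Chromosomes 22 and 25 stood highest, with 4.91 and 4.62 per Mb from 20 and 10 regions, and chromosome 1 was the lowest of the numbered chromosomes that carried any, with 0.968 from 189 regions. Chromosome 16, with 6 distal peaks, carried none. Of the distal peaks, those with at least 19 tags made up 12.3% on microchromosomes and 7.49% on macrochromosomes, and the Z chromosome, with 7.87%, was close to the overall 8.83% although its peaks of any strength were sparse (5.45 distal peaks per Mb against 15.9 on macrochromosomes). IgG tags per region had a median of 3.5 on microchromosomes and 3 on macrochromosomes, and the part of base composition or mappability in these shares was not tested. CpG islands held 8 of the 15 regions of chromosome 28 and 17 of the 44 of chromosome 14, but 1 of the 16 of chromosome 24. These were the highest shares and the lowest one, from small counts, and the CpG share of weaker peaks was not counted by chromosome.

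**Figure D4:**
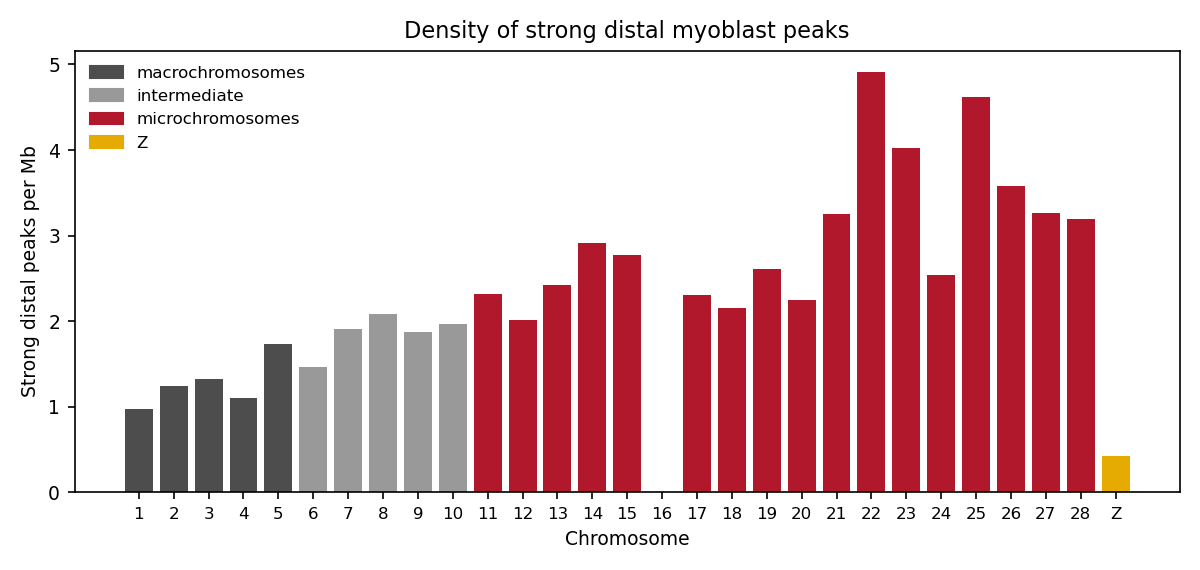
Strong distal myoblast peaks per Mb (vertical) on each chromosome (horizontal), with the length taken as the end of its last myoblast peak and colours for the chromosome class. All microchromosomes but 16, which has none, lie above 2 per Mb, whereas macrochromosomes lie between 0.968 and 1.73 and Z at 0.428.

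Few of the regions were also called in myotubes. The myotube list was short, with 1061 peaks against 19354 in myoblasts, and 74 of the 1061 overlapped any myoblast peak. A myotube peak overlapped 13 of the 1475 regions by at least 1 bp (0.881%, 0.470 to 1.50%), set against 0.382% of all myoblast peaks and 12 of the other distal peaks (0.0788%, 0.0407 to 0.138%). The share was higher than among the other distal peaks, by an odds ratio of 11.3 (4.73 to 27.1) with p = 3.56e-08 by the two-sided exact test of Fisher. It was concentrated in the strongest regions, with 7 of the 101 that held at least 25 tags, 4 of the 286 with 22 to 24.5 tags, 1 of the 548 with 20 to 21.5 and 1 of the 540 with 19 or 19.5. Of the 17 regions with at least 30 tags 5 were shared, and without these 17 the share was 8 of 1458 (0.549%, Fisher exact p = 0.000161). Both tests set peaks with more myoblast tags against peaks with fewer, which would also give fewer myotube tags at an equal level.

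The remaining 1462 regions had no overlapping myotube peak, which does not show that c-Myc was absent there, since the lists were called separately. Scaled for depth and in proportion to the narrower myotube peaks of 154 bp, the weakest region would give 11 tags in the myotube library at an equal level. The median region would give 11.6. In the myotube list the lowest peak held 9 tags and the lowest value of the caller's own score was 11. Most regions would thus lie near the floor of that list, where counting error alone could leave a region uncalled. How many would have been called was not tested. The other distal peaks, with 9 to 18.5 myoblast tags, would give fewer than 11 myotube tags at an equal level. They would thus lie lower still against that floor, and the part of this in their smaller shared share was not tested. Strong promoter and TSS peaks of myoblasts were shared to a like extent, 3 of 297 (1.01%), with a difference that did not pass the test and an odds ratio of 0.872 with an interval from 0.237 to 4.8 (Fisher exact test, adjusted p = 0.741 over 2 comparisons). Strong distal peaks in repeats were shared far more often, 32 of 137 (23.4%; odds ratio of the regions against them 0.0293, exact test, adjusted p = 8.95e-26). Those repeat peaks held a median of 22 c-Myc and 5 IgG tags, against 20 and 3.5 in the regions. Their highest count was 341 c-Myc tags, against 48.5 in the regions. The part of these higher tags in their larger shared share was not tested.

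At the 13 shared regions the score in tags per 10M was lower in myotubes every time, without correction for the narrower peak, at 0.425 to 0.944 of the myoblast score with a median of 0.693. The regions were chosen for a high myoblast value, so this direction is a description. Against the tags expected from depth and width at an equal level, 5 of the 13 held at least as many in myotubes. The region near CHST6 was the strongest of them in both states, with 34.7 tags per 10M in myotubes and 42.3 in myoblasts. It held 30 c-Myc and 9 IgG tags in myotubes, against 48.5 and 9 in myoblasts. The region near CCDC101 came next in myotubes, at 24.9 tags per 10M there and 31.4 in myoblasts, with few IgG tags in either state, 2 and 3.

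OST4, a small subunit of the oligosaccharyltransferase that glycosylates proteins, had a CpG island region 6.84 kb upstream on chromosome 3 from 104140749 to 104140949. Its score was 18.5 tags per 10M in myotubes and 19.6 in myoblasts, the closest pair of the 13, with 6.5 and 7.5 IgG tags. The region nearest to ERCC5, a DNA repair endonuclease, lay 358.5 kb from it on chromosome 1 from 141664689 to 141664889 and scored 19.1 and 23.1, with 7.5 and 9 IgG tags. The region nearest to GHRH, on chromosome 20 from 5400708 to 5400908, scored 17.9 in myotubes and 27.5 in myoblasts, with 6 IgG tags in each state. In these regions IgG tags were thus well above the median of their lists in both states.

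The shared regions nearest to MICAL1, ARNT and RPS27L had IgG counts no higher than the median of their lists. That nearest to MICAL1, an actin-oxidising monooxygenase, lay close to the start of chromosome 26 (4068 to 4268), with 12 c-Myc and 0.5 IgG tags in myotubes, against 27.5 and 0 in myoblasts. That nearest to ARNT, a partner of the hypoxia and dioxin receptor factors, lay 2.17 kb upstream on chromosome 25 from 1732093 to 1732293 and held 11.5 and 2.5 tags in myotubes and 22 and 0.5 in myoblasts. The peaks near ARNT shared only 21 bp, and those near RPS27L, a ribosomal protein paralog on chromosome 10, shared 34 bp. RPS27L had 10 and 3 tags in myotubes and 21 and 1 in myoblasts.

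The largest gaps between the states were at GBP and TRAP1. GBP scored 13.9 in myotubes and 32.7 in myoblasts, and TRAP1, a mitochondrial chaperone whose CpG island region lay on chromosome 14 from 12466245 to 12466445, scored 12.7 and 26.1. ITGA8, an integrin subunit, scored 16.2 and 21.4, and AMPD3, an AMP deaminase with a region in intron 1, scored 12.7 and 19.2. CRYAB, a small heat shock protein abundant in muscle, had a region 30.2 kb downstream of its TSS that scored 15 in myotubes and 17 in myoblasts, with more IgG tags in myotubes (7) than in myoblasts (3). Over the 13, the median was 4 IgG tags in myotubes, against 3 over all myotube peaks, and 6 in myoblasts, against 3.5 over the regions that were not shared. The 13 also held more c-Myc tags in myoblasts, with a median of 26.5 against 20. Among peaks with at most 2 IgG tags in myoblasts, 3 of 478 regions and 5 of 6932 other distal peaks were shared (0.628% against 0.0721%, exact test p = 0.0117).

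**Figure D5:**
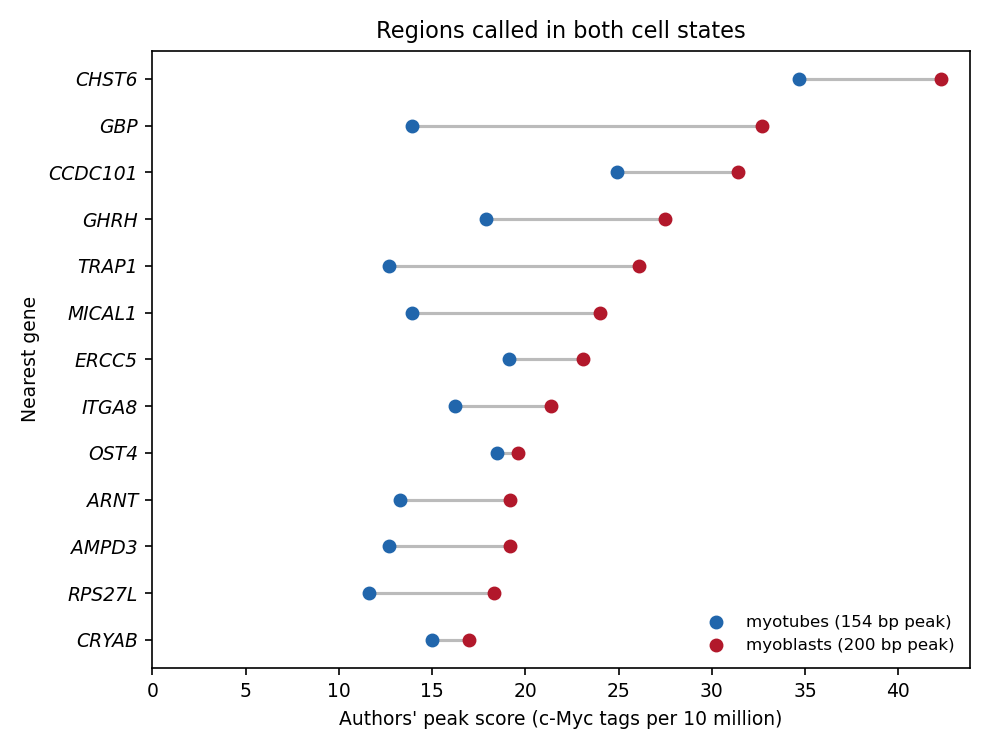
The authors' peak score (horizontal, c-Myc tags per 10M, not corrected for peak width) in myotubes (blue) and in myoblasts (red) at the 13 strong distal regions called in both states, named by nearest gene and ordered by myoblast tags. Each region has a single value per state, and every myotube value lies left of the myoblast value, from 0.425 of it at GBP to 0.944 at OST4.

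Most regions stood alone. Runs in which the next region was centred within 10 kb took in 102 of the 1475 regions (6.92%), in 48 pairs and 2 runs of 3. A run of 3 on chromosome 15 from 9275435 to 9278447 lay 2.71 to 5.53 kb downstream of the TSS of LOC427708, annotated as a dynein light chain, with 21, 26 and 19 c-Myc tags and 5, 3.5 and 4 IgG tags. The other, on chromosome 4 from 536455 to 550267, lay upstream of the microRNA gene MIR6594, with 19.5, 20 and 20 tags and 5, 2 and 4 IgG tags. A pair in the 3′ untranslated region of THRAP3 held 22 and 28.5 tags, and a pair upstream of HBZ held 32.5 and 19. Counting myoblast peaks of any strength, 38% of the regions and 33.7% of the other distal peaks had another peak within 10 kb.

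The regions were spread over many genes. They were nearest to 1180 genes, of 4766 named in the myoblast list (24.8%), and 946 of these had a single region. The most regions per gene was 4, reached by 7 genes. PPT1, a lysosomal thioesterase, had 27, 19, 20 and 22 tags at 36.8 to 85.9 kb, all downstream of its TSS. STAU1, an RNA-binding protein of mRNA transport, had 19.5, 20, 25 and 19.5 tags on both sides, and KLHDC4 had 19.5, 22.5, 20.5 and 19. MBP, known for its protein in myelin, had 21, 20, 20.5 and 20 tags up to 406.1 kb away. ATP6V1B2, a subunit of the lysosomal proton pump, had 21, 20.5, 19 and 19.5, and MIR6594 had 19.5, 20, 20 and 19.

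COL3A1, the gene of a fibrillar collagen made by connective tissue cells, also had 4 regions. They held 22, 19, 19.5 and 19 c-Myc tags and 3, 1, 5 and 1.5 IgG tags, at 114.5 kb on one side of the TSS and 150.4 to 212.7 kb on the other. ATP6V1B2 and COL3A1 also had a myoblast peak within 1 kb of the TSS, and the other 5 did not. Over all genes, 236 of the 1180 nearest to a region (20%) had such a promoter peak, against 16.7% of the 3158 genes nearest to weaker distal peaks alone.

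Lists of genes were read against 2 shares over the whole table: 24.8% of all genes named in the myoblast list were nearest to a region, and the regions made up 8.83% of all distal peaks. Genes with more distal peaks have more chances to be nearest to a strong one, so the second share is the less dependent on peak number. Among the MYC network, c-Myc and its partners and antagonists, 5 of 7 named genes were nearest to a region, but the regions were 5 of their 45 distal peaks (11.1%). MXD4 and MXI1, which compete with MYC for MAX, had regions in CpG islands 45.6 and 58.9 kb downstream of their TSS, with 24 and 23.5 c-Myc tags and 7 and 3 IgG tags. MLX, a MAX-like factor, had one with 20.5 and 3.5 tags at 28.5 kb. MYC itself was nearest to a region with 20.5 and 3.5 tags, 501.2 kb downstream of its TSS, and its paralog MYCN to one with 19 and 2 tags at 91.3 kb.

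Textbook MYC targets had 3 of 12 named genes nearest to a region and 3 regions among 31 distal peaks (9.68%). LDHA, a subunit of lactate dehydrogenase, had 23 c-Myc and 6.5 IgG tags at 14.6 kb upstream. CCND2, a D-type cyclin, had 21 and 7 tags at 124 kb, and EIF2S1, a translation initiation factor, had 19 and 2 in intron 4. These shares were close to those over all genes and distal peaks.

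Myogenic regulators had 7 of 19 genes and 8 of 99 distal peaks (8.08%). TWIST2, an inhibitory helix-loop-helix factor, was nearest to a region with 22.5 c-Myc and 0 IgG tags 56.1 kb upstream. MEF2D, a MADS-box activator of muscle genes, had a CpG island region with 21.5 and 3 tags at 40 kb, and ID4, an inhibitor of E proteins, one with 20 and 3.5 tags. EYA2, a transcriptional coactivator, had 19.5 c-Myc and 4 IgG tags. TCF12, an E protein that pairs with MyoD factors, had 19.5 and 5.5, and PAX7, which marks muscle stem cells, had 19 and 5.5. The determination genes MYOD1, MYF5 and MYF6 were nearest to none of the regions. The same held for most genes named in the myoblast list, of which 24.8% were nearest to a region.

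Sarcomere and contraction genes had 3 of 15 genes and 4 of 61 distal peaks (6.56%). TNNC2, the fast skeletal troponin C, was nearest to a CpG island region with 25.5 c-Myc and 3 IgG tags at 44.3 kb. DMD, the dystrophin gene, had 2 upstream, with 23.5 and 21 c-Myc tags and 4 and 0.5 IgG tags. TPM1, a tropomyosin, had one with 19 and 2.

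Developmental and adhesion genes had many distal peaks but no larger share of strong ones. Morphogen and growth factor signalling had 15 of 41 genes and 21 of 258 distal peaks (8.14%), led by WNT5A, a Wnt ligand, with 22 c-Myc and 1.5 IgG tags at 307 kb. FGF14, an intracellular member of the fibroblast growth factor family, and TGFBR2, a TGF-beta receptor, had 21.5 and 0 tags each, and BMP4, a bone morphogenetic protein, had 21.5 and 2. Homeobox and other developmental regulators had 10 of 34 genes and 14 of 220 peaks (6.36%), with LHX9, a LIM homeobox factor, at 25 and 3.5 tags in a CpG island, MSX2, a homeobox factor, at 22.5 and 0, FOXP1, a forkhead factor, at 22 and 3 and RUNX1, a regulator of blood cell formation, at 21 and 2. Cell adhesion and matrix genes had 7 of 25 and 10 of 182 (5.49%), with TNC, which encodes tenascin C, at 26.5 and 4.5, ITGA8 at 24.5 and 5.5, CDH8, a cadherin, at 22.5 and 1, and CDH2, N-cadherin, at 22.5 and 2. Axon guidance and synapse genes had 8 of 23 and 8 of 152 (5.26%), with NRXN3, a neurexin, at 23 and 2 and EPHA4, an ephrin receptor, at 21 and 6.5.

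Markers of other cell types gave small counts. Fibroblast markers had 4 of 7 genes and 8 of 44 distal peaks (18.2%), of which 4 were those of COL3A1. DCN, the gene of the matrix proteoglycan decorin, was nearest to a region with 22 c-Myc and 3 IgG tags 15.0 kb upstream. A further DCN region, in a CpG island 96.7 kb upstream, had 20.5 and 4.5. PDGFRA, a growth factor receptor of mesenchymal cells, had an exonic region with 20 and 2.5. FAP, a surface protease of activated fibroblasts, had an intronic one with 19.5 and 1. Adipocyte markers had 2 of 9 genes and 2 of 25 peaks (8%), PLIN1, a coat protein of lipid droplets, with 23.5 and 4 tags and PPARG, the master regulator of fat cells, with 21 and 5. Endothelial and blood markers had 3 of 9 and 5 of 51 (9.80%), led by HBZ, and neural markers 1 of 5 and 1 of 24 (4.17%), SOX2, a factor of neural progenitors, with 20 and 4. COL3A1 and PDGFRA, RUNX1 and SOX2 also stand in other lists above.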

How the data were processed

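Per the submitters' processing notes, the tools were HOMER 4.6, Bowtie2 2.1.0, Trimmomatic 0.30, CASAVA 1.8.2 and FastQC 0.10.1, and the build was galGal4; no options are given there. Peaks were called in each cell state from the c-Myc against the IgG library and annotated, per the file headers. The score deposited by the authors equals c-Myc tags per 10M within 0.05; a further deposited score is the caller's own. The signal columns deposited are c-Myc and IgG tags per peak, unscaled, and IgG tags after scaling. Folds over IgG and over the local region are ratios deposited by the authors, and p-values per peak are those of the authors' caller, not used here as evidence. IgG tags printed are the unscaled ones, and coordinates are as deposited. The scaled IgG tags are not a fixed multiple of the unscaled ones, with 3 unscaled and 3.2 scaled near CCDC101 but 2 and 0.4 near CDH2. The folds over IgG therefore cannot be recomputed from the IgG tags printed here, and the reason was not tested.

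Regions were selected and counted with Python 3.11.15, pandas 2.3.3 and numpy 2.4.6, tested with scipy 1.17.1 and statsmodels 0.14.6, and drawn with matplotlib 3.10.9; the counting was tested on simulated data. Members and gene lists were chosen with earlier results of these data known; symbols were matched exactly. Named regions were the 12 with most tags, those shared with myotubes, the top 8 in genes and in CpG islands, runs, genes with most regions (a tie of 7 was kept whole) and up to 4 per list; not every one is named, and 1 gene of the myogenic list is not reported here. Further genes of short lists, and the strong promoter and repeat peaks, were chosen after their values were seen. No sequence of galGal4 was used here.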

Additional observations from a re-analysis of the deposited data

How the results depend on the processing

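Values are the share of the regions minus that of the other distal peaks, in percentage points, with Fisher exact tests. The differences in myotube overlap (0.174 to 6.82), microchromosomes and distances over 100 kb kept their direction and call under every alternative run. Each run for myotube overlap still set peaks with more myoblast tags against peaks with fewer, so none removed the difference in expected myotube tags. No run split the distance classes by chromosome class. That in CpG islands (2.16 to 33.2) did so except within Z (2.16). Myotube overlap among CpG island peaks rested on 4 of 229 regions against 3 of 874 other distal peaks (exact test p = 0.0374). Its odds ratio of 5.15 had an interval that includes 1 (0.865 to 35.4). Within CpG islands macrochromosomes (-6.44), the class within 10 kb (3.15) and that from 10 to 100 kb (4.33) lost their calls, and intermediate chromosomes turned (-1.95). With repeats kept, 45 of 1612 regions (2.79%) overlapped a myotube peak. With a limit of 15 tags, 3′ untranslated regions (0.349), intermediate chromosomes (2.32) and Z (-0.733) were called, and exons (-0.0643), 5′ untranslated regions (0.0127) and transcript ends (-0.00354) changed sign uncalled. With 25 tags the class within 10 kb lost its call (4.49; 101 regions) and intermediate chromosomes turned to -3.68. With at most 2 IgG tags the class from 10 to 100 kb lost its call (1.71), as it did without CpG islands (2.16), and intergenic sequence (-1.31), intermediate chromosomes (-0.820) and Z (0.138) turned. Intergenic sequence also turned at a fold over IgG of at least 8 (-0.252) and without CpG islands (-1.38), intermediate chromosomes at that fold (-0.664), and Z with repeats kept (0.291). The cause of these changes was not tested. Leaving out or keeping only CpG islands, leaving out the strongest 12 or 17 regions, and splitting by chromosome class were chosen after seeing the data. No eligible peak lay on unplaced sequence, so the run without it repeated the main values and could not change a call. The run without myotube peaks in repeats returned the same overlap counts as the main one, 13 of 1475 regions and 12 of 15228 other distal peaks. No paired analysis was possible because each group has 1 library. Depth limits single regions to the counting error given above.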
